A study of Homo sapiens with 4 samples.

Results

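The collagen genes were compared between endothelial cells that lack GFI1 and wild-type cells. Every protein-coding gene whose symbol has the form COL, number, A, number was taken, which gave 44 genes of the 19878 protein-coding genes with a symbol in the count table. By the kind of assembly their products form, 11 were grouped as fibrillar, 8 as basement membrane (the type IV chains and the multiplexins COL15A1 and COL18A1) and 25 as other. The 2 groups were GFI1-KO (2 libraries) and WT (2 libraries). Both derived from H1, a line of human embryonic stem cells, were differentiated to endothelium, and were taken as cells positive for a GATA2/eGFP reporter. GFI1 is a transcriptional repressor active when hemogenic endothelium turns into blood, and the design compares the endothelial transcriptome with and without it. The sources used here do not say how GFI1 was disrupted or how many clones were used.

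Collagens are secreted proteins whose chains wind into helical trimers. Fibrillar collagens, led by types I and III, form the cable-like fibres of connective tissue, and type V chains sit inside those fibres and control their width. Type IV chains form the sheet-like network of the basement membrane on which endothelium rests. The multiplexins bind to that membrane, and the tail of COL18A1 can be cut off as endostatin, an inhibitor of vessel growth. Type VI chains form beaded microfibrils close to the membrane, and the fibril-associated collagens decorate fibres without forming them.

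GFI1-KO replicate 1 was far shallower than the rest, with 146584 counts against 2239214 to 2417410 in the other 3 libraries, so that a floor of 3 counts equals 19.9 CPM there and 1.26 to 1.34 CPM elsewhere. CPM are TMM-scaled counts relative to the library total, and TMM is a correction for composition. GFI1 itself had 3 and 44 counts in GFI1-KO and 131 and 139 in WT. Its edgeR adjusted p was 0.0215, but the call was lost with DESeq2 (0.443) and in 3 of the 4 edgeR fits that left out 1 library: 0.137 and 0.096 when WT replicate 1 or 2 was dropped, and 0.271 when GFI1-KO replicate 2 was. The endothelial label was checked with 10 marker genes, all of which had counts. They summed to 6803 and 8292 CPM in GFI1-KO and 5532 and 5738 CPM in WT. Most of this sum was KDR, with 3703 and 4970 CPM in GFI1-KO and 2995 and 3285 CPM in WT. Of the 10 markers, EMCN, which encodes the sialomucin endomucin, was called higher (log2 fold change 2.38, SE 0.41, edgeR adjusted p = 0.00959). SOX17 had the next smallest adjusted p (1.03, SE 0.30, edgeR adjusted p = 0.135). Log2 fold changes lay above 0 for 9 markers, beside 47.5% of all tested genes, and PECAM1 was the 1 below (-0.33, edgeR adjusted p = 0.759). In 8 of the 10 both GFI1-KO libraries lay above both WT libraries, beside 18.6% of all tested genes. An unadjusted edgeR p under 0.05 was found for 6 of the 10, beside 9.35% of all tested genes. The leukocyte gene PTPRC had 0 counts in all 4 libraries, but other blood markers did have counts. The 10 blood markers listed summed to 0 and 13.8 CPM in GFI1-KO and 45.1 and 71.8 CPM in WT.

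Of the 44 collagen genes, 1 rose, COL5A2, and 1 fell, COL18A1, in GFI1-KO cells. COL5A2 encodes the minor chain of type V fibrils and reached 2.56 times its WT mean. COL18A1, the endostatin precursor of vascular basement membranes, was at 0.391 times its WT mean. The abundant type I, III, IV and VI chains did not pass the test in either direction. Of the 44 genes, 26 passed the filter on low counts and were tested with edgeR within a fit of all 11380 tested genes. A call was an adjusted p under 0.05 by Benjamini-Hochberg over all of those. Over all tested genes 0.773% were called higher and 0.185% lower. The other 24 tested collagen genes were not called, and 18 were not tested. DESeq2 and limma-voom each called the same number of collagen genes as edgeR, 2, and these were COL5A2 and COL18A1 again.

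The tested collagen genes leaned in neither direction. Their median log2 fold change was 0.12, beside -0.024 for all tested genes, and 14 values lay above 0 and 12 below. In 5 of the 26 both GFI1-KO libraries lay above both WT libraries, in 5 both lay below, and in 16 the groups overlapped. Over all tested genes both GFI1-KO libraries lay above both WT libraries in 18.6% and below in 22.7%, so these counts are near the background. The family medians were 0.099 for 9 tested fibrillar genes, 0.15 for 6 basement membrane genes and -0.26 for 11 other genes. The plot of fold changes by family shows COL5A2 and COL18A1 at its outer ends.

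**Figure D1:**
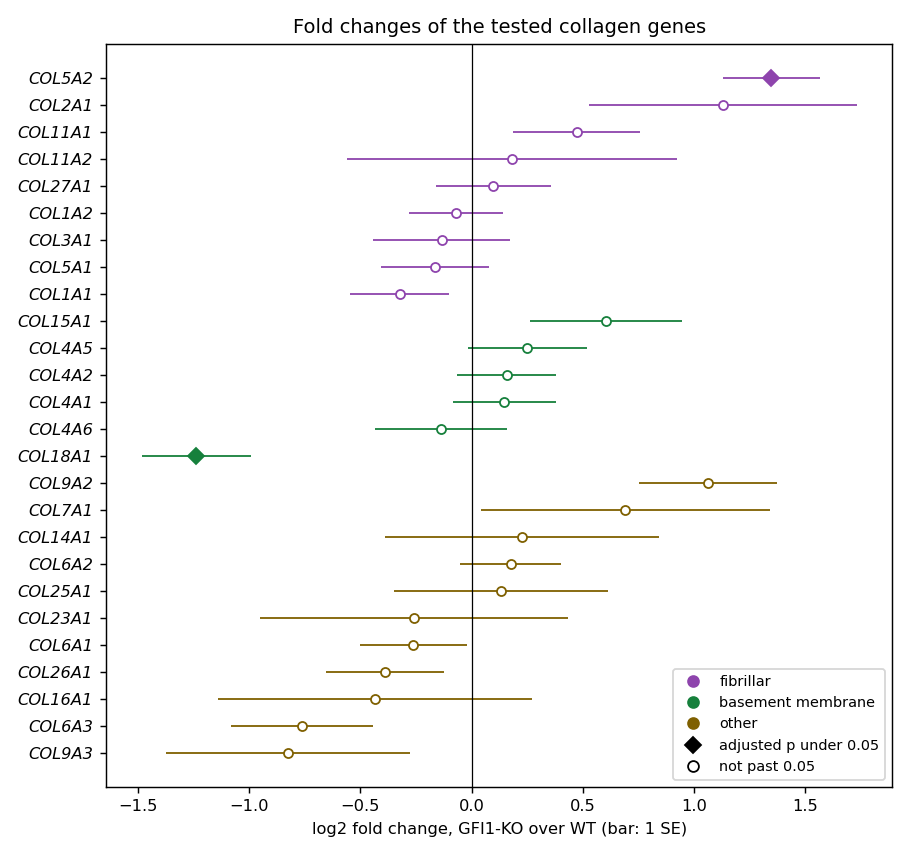
Log2 fold change (GFI1-KO over WT, horizontal axis) of the 26 tested collagen genes, ordered within the fibrillar, basement membrane and other families; bars are 1 SE, and filled diamonds mark an edgeR adjusted p under 0.05. COL5A2 at 1.35 and COL18A1 at -1.24 are the 2 called genes.

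The share of reads taken by all collagen genes overlapped between the genotypes. They held 0.770% and 0.912% of all gene counts in GFI1-KO replicates 1 and 2, against 0.949% and 0.750% in WT replicates 1 and 2. The exact binomial 95% interval in the shallow library was 0.726% to 0.816%. Both GFI1-KO shares lay between the WT shares. In bulk RNA, fewer cells that express a gene and less RNA per cell cannot be told apart. Basement membrane genes held the largest share of any family, with 0.350% and 0.447% in GFI1-KO and 0.431% and 0.363% in WT. Fibrillar genes had 0.300% and 0.328% in GFI1-KO and 0.363% and 0.274% in WT. The other 25 genes had 0.120% and 0.137% in GFI1-KO and 0.155% and 0.113% in WT. In each family the GFI1-KO and WT values overlapped.

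**Figure D2:**
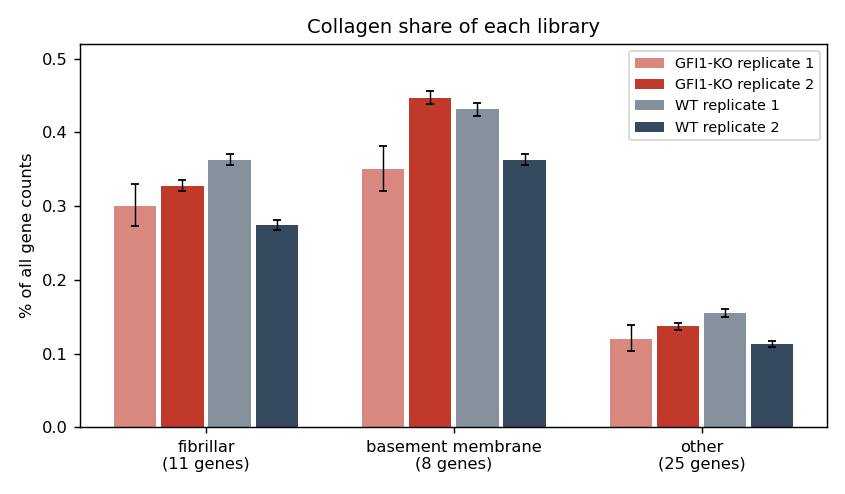
Share of all gene counts (percent, vertical axis) held by each collagen family in each of the 4 libraries; bars start at 0 and error bars are exact binomial 95% intervals, which cover counting error only. The 2 GFI1-KO libraries overlap the 2 WT libraries in all 3 families, for example 0.350% and 0.447% beside 0.431% and 0.363% for basement membrane genes.

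Fibrillar genes come first. COL5A2 (ENSG00000204262; chromosome 2, 189031896 to 189225312, minus strand, GRCh38) had 424 and 406 CPM in GFI1-KO replicates 1 and 2, on 64 and 913 counts. In WT replicates 1 and 2 it had 147 and 177 CPM, on 330 and 421 counts. Both GFI1-KO libraries were high and close to each other, and the groups did not overlap. Exact Poisson 95% counting intervals were 327 to 541 and 380 to 434 CPM in GFI1-KO, above 132 to 164 and 160 to 194 CPM in WT. The means were 415 ± 12.4 CPM in GFI1-KO and 162 ± 20.7 CPM in WT (SD, n = 2 each). The log2 fold change came to 1.35 (SE 0.22, edgeR adjusted p = 0.00727). The fold change kept its sign when each library in turn was left out, from 1.24 to 1.503. Its call was lost without WT replicate 1 (edgeR adjusted p = 0.101).

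Its partner in type V trimers, COL5A1, did not pass. COL5A1 had 258 and 466 CPM in GFI1-KO and 448 and 420 CPM in WT, so the shallow GFI1-KO library was low and the deep one lay above both WT libraries. Its log2 fold change was -0.16 (SE 0.24, edgeR adjusted p = 0.94), and without GFI1-KO replicate 1 it was 0.10. COL5A3, the third type V gene, had no count in any of the 4 libraries. At the floor of 3 counts that leaves room for 19.9 CPM in the shallow library and 1.26 to 1.34 CPM in the others.

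The ratio of the type V chains was also taken inside each library, where no scaling enters. Type V is best known as a trimer in which COL5A1 chains outnumber COL5A2 chains. Counts of COL5A1 over COL5A2 gave 0.609 and 1.15 in GFI1-KO replicates 1 and 2, against 3.04 and 2.38 in WT replicates 1 and 2. The exact 95% intervals were 0.398 to 0.921 and 1.05 to 1.26 in GFI1-KO, below 2.68 to 3.46 and 2.12 to 2.67 in WT. Both GFI1-KO ratios lay below both WT ratios, and COL5A1 reads were the fewer of the pair in the shallow library. These ratios are not corrected for annotated exon length, 11189 bases for COL5A1 and 7453 for COL5A2, and reads measure RNA, not chains. Per kilobase of annotated exon, COL5A1 averaged 32.4 CPM in GFI1-KO and 38.8 in WT. COL5A2 averaged 55.7 in GFI1-KO and 21.7 in WT, so per kilobase COL5A1 was the lower in the GFI1-KO mean. The mean log2 ratio differed by -1.69 (GFI1-KO minus WT). With 2 libraries a group an exact two-sided permutation test cannot go below p = 0.333, which is the p it gave here. This ratio holds COL5A2 and so is not independent of its call.

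COL3A1 lies next to COL5A2 and points toward it, with 19149 bases between the genes. It encodes the chain of type III fibrils, which are plentiful in vessel walls. COL3A1 had 484 and 538 CPM in GFI1-KO, between the 332 and 802 CPM of WT replicates 2 and 1. The WT libraries differed from each other by more than the genotypes did (log2 fold change -0.14, SE 0.31, edgeR adjusted p = 0.968). Its sign depended on the library left out, with values from -0.63 without WT replicate 2 to 0.64 without WT replicate 1. Of the 2 neighbours, COL5A2 was thus the called one. The difference between them was not tested as a model term.

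Type I is the main fibre collagen of the body, and COL1A2 had the highest level of the fibrillar genes per kilobase of annotated exon, as a mean over the 4 libraries. COL1A2 had 1159 and 1122 CPM in GFI1-KO and 1302 and 1088 CPM in WT (log2 fold change -0.070, SE 0.21, edgeR adjusted p = 0.98). COL1A1 had 424 and 559 CPM in GFI1-KO and 700 and 564 CPM in WT (-0.32, SE 0.22, adjusted p = 0.782). Both GFI1-KO values of COL1A1 lay below both WT values, but the deep GFI1-KO library and WT replicate 2 were nearer to each other than to their own replicates. The COL1A1 to COL1A2 count ratio was 0.366 and 0.498 in GFI1-KO and 0.538 and 0.519 in WT. Its interval in the deep GFI1-KO library, 0.465 to 0.533, overlapped both WT intervals. COL1A1 reads were the fewer in every library, although COL1A1 chains are the majority in the type I trimer. Reads measure RNA, not chains.

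The remaining fibrillar genes were lower in level. COL11A1, a chain of fibres of cartilage and embryonic tissue, had 86.1 and 184 CPM in GFI1-KO and 132 and 92.3 CPM in WT (log2 fold change 0.47, SE 0.28, edgeR adjusted p = 0.702). Its sign turned to -0.37 without GFI1-KO replicate 2, so the deep GFI1-KO library carried the positive value. COL27A1 had 66.2 and 108 CPM in GFI1-KO and 90.7 and 91.5 CPM in WT (0.099, SE 0.26, adjusted p = 0.973). COL2A1, the cartilage fibre gene, had 0 and 38 counts in GFI1-KO and 7 and 24 in WT. COL11A2 had 2 and 8 counts in GFI1-KO and 10 and 8 in WT, and COL24A1 was not tested on 0 and 3 against 4 and 6. These 3 genes gave too few counts in the shallow library to place it above or below WT.

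**Figure D3:**
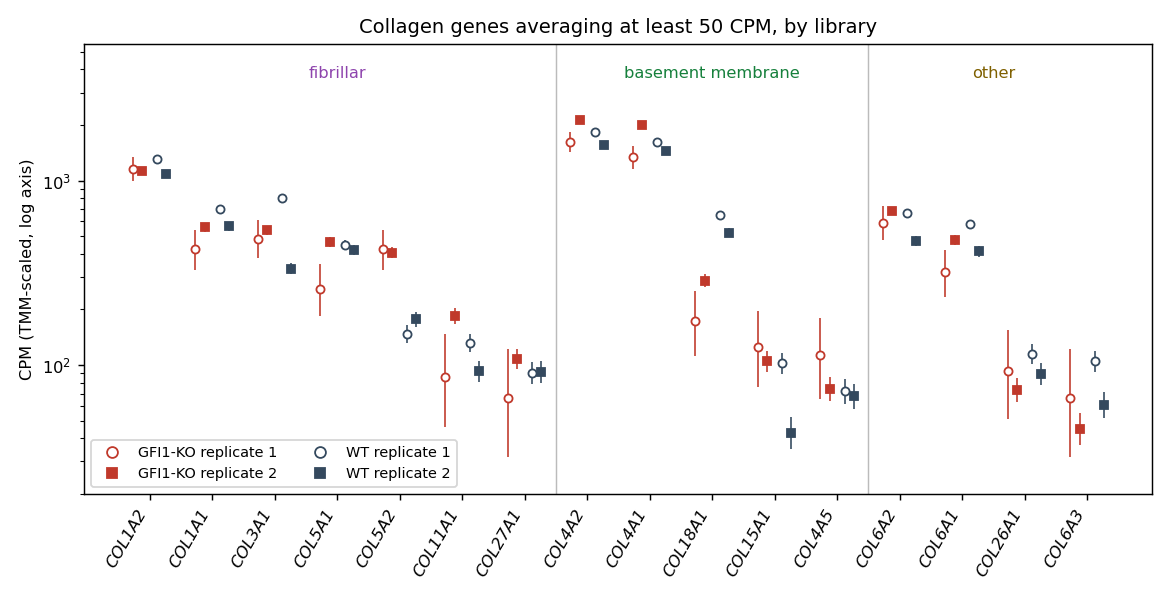
Level in each library (TMM-scaled CPM, log axis) of the 16 collagen genes that averaged at least 50 CPM, in family blocks; red marks GFI1-KO, dark blue WT, open circles replicate 1 and filled squares replicate 2, with exact Poisson 95% counting intervals. COL5A2 lies at 424 and 406 CPM in GFI1-KO above 147 and 177 CPM in WT, and COL18A1 at 172 and 287 CPM below 652 and 522 CPM.

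Among basement membrane genes, COL18A1 was the 1 that fell. COL18A1 (ENSG00000182871; chromosome 21, 45405137 to 45513720, plus strand, GRCh38) had 172 and 287 CPM in GFI1-KO replicates 1 and 2, on 26 and 645 counts. In WT replicates 1 and 2 it had 652 and 522 CPM, on 1460 and 1245 counts. Both GFI1-KO libraries were low and the groups did not overlap, nor did their counting intervals, with 252 and 310 CPM as upper bounds in GFI1-KO and 619 and 494 CPM as lower bounds in WT. The means were 230 ± 81.2 CPM in GFI1-KO and 587 ± 91.6 CPM in WT (SD, n = 2 each). The log2 fold change came to -1.24 (SE 0.25, edgeR adjusted p = 0.0225). Leaving out each library in turn gave -1.76 to -1.03. The call was lost without WT replicate 1 (edgeR adjusted p = 0.149), with edgeR's newer dispersion (0.0647) and with a filter at a mean of 5 CPM (0.0507).

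COL18A1 shares 1401 exon bases with SLC19A1, the reduced folate carrier gene on the opposite strand. SLC19A1 had 106 and 118 CPM in GFI1-KO and 255 and 228 CPM in WT (log2 fold change -1.07, SE 0.23, edgeR adjusted p = 0.0402). Among the genes named here that the reported fit called, this adjusted p lay closest to the threshold of 0.05. The SLC19A1 call was lost with DESeq2. The sources used here do not state whether counting used strand. Reads of the shared bases therefore cannot be assigned to one gene, and their part in either result was not tested.

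**Figure D4:**
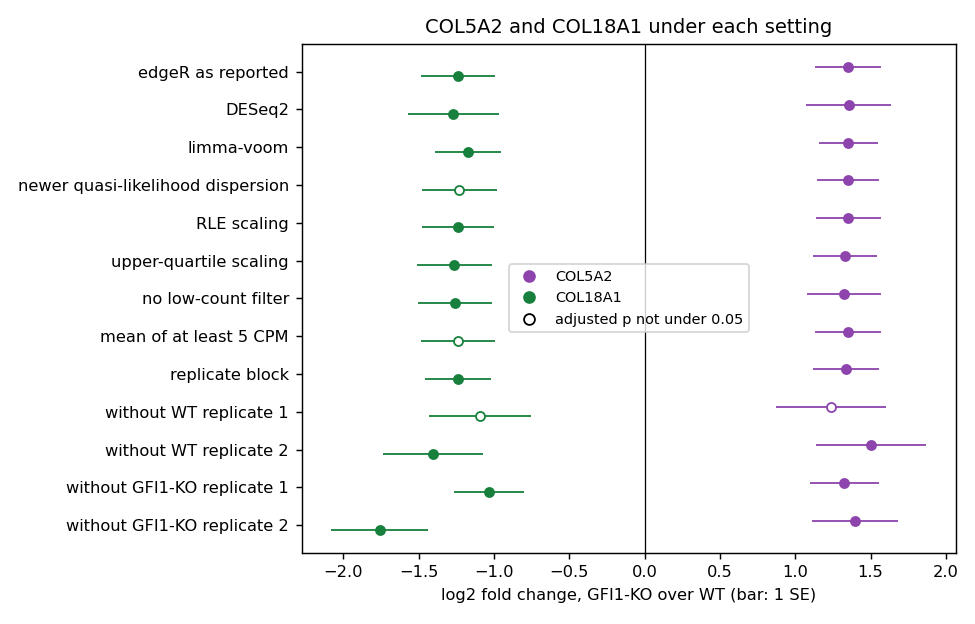
Log2 fold change (GFI1-KO over WT, horizontal axis) of COL5A2 and COL18A1 under the reported fit and each of 12 alternatives (rows); bars are 1 SE and open circles mark an adjusted p not under 0.05. COL5A2 stays between 1.24 and 1.503 and COL18A1 between -1.76 and -1.03, and both lose the call without WT replicate 1.

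COL18A1 has 2 start sites in the RefSeq table, 50357 bases apart, and the gene-level counts do not separate them. The stretches before them are shown because COL18A1 was the collagen gene that fell and its RNA can begin at either. They are RefSeq windows of the plus strand, cut where a GENCODE 29 exon begins (GRCh38.p14, 222 and 217 bases). Capitals mark AATC, the core that GFI1 proteins recognise, and GGGCGG, the GC box bound by Sp1, each searched on both strands with overlapping matches counted.
COL18A1 upstream start, chr21:45404915-45405136: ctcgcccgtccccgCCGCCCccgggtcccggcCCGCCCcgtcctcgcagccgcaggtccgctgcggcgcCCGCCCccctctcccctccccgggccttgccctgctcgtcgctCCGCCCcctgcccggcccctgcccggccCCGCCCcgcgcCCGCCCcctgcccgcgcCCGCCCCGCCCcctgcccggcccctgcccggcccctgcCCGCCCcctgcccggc
COL18A1 downstream start, chr21:45455272-45455488: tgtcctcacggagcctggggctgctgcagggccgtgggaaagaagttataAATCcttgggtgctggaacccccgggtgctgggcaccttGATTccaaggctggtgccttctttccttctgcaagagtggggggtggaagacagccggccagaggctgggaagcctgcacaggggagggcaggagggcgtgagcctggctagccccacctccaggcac

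The 2 stretches differ in make-up. The upstream one is 88.7% G or C, with 9 GGGCGG matches and 0 AATC matches. The downstream one is 64.1% G or C, with 2 AATC matches and 0 GGGCGG matches. Over all RefSeq windows, 61.6% hold AATC and 39.2% hold GGGCGG in the same 222 bases, and 61.0% and 38.5% do in the same 217 bases, so neither motif is rare. Of the 44 windows found for 32 of the collagen genes, 26 hold AATC in their 250 bases before the start, or 59.1%, beside 64.8% of all windows, and 24 hold GGGCGG, or 54.5%, beside 42.6% of all windows. These matches describe letters, not binding.

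COL15A1, the other multiplexin, was not called. It had 126 and 105 CPM in GFI1-KO replicates 1 and 2 and 102 and 42.8 CPM in WT replicates 1 and 2. Both GFI1-KO values lay above both WT values, with the deep GFI1-KO library close to WT replicate 1 (log2 fold change 0.61, SE 0.34, edgeR adjusted p = 0.668). The fold change rested on the WT library kept, at 1.39 without WT replicate 1 and 0.14 without WT replicate 2. COL15A1 over COL18A1 counts came to 0.731 and 0.364 in GFI1-KO and 0.157 and 0.0819 in WT. The intervals did not meet, with 0.382 and 0.312 as lower bounds in GFI1-KO and 0.180 and 0.1003 as upper bounds in WT. The mean log2 ratio was 2.19 higher in GFI1-KO (exact two-sided permutation p = 0.333, the smallest that 2 against 2 libraries can give). This ratio holds COL18A1 and so is not independent of its call.

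The ubiquitous type IV chains COL4A1 and COL4A2, the collagen genes with the highest CPM, were not called. COL4A2 had 1616 and 2128 CPM in GFI1-KO and 1826 and 1559 CPM in WT (log2 fold change 0.16, SE 0.22, edgeR adjusted p = 0.937). COL4A1 had 1338 and 2007 CPM in GFI1-KO and 1618 and 1446 CPM in WT (0.15, SE 0.23, adjusted p = 0.943). For both genes the deep GFI1-KO library was the highest of the 4 and the groups overlapped. Their signs turned to -0.19 for COL4A1 and -0.057 for COL4A2 without GFI1-KO replicate 2. By mean level they ranked 30 for COL4A2 and 36 for COL4A1 among protein-coding genes, without regard to gene length.

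COL4A1 and COL4A2 face away from each other across a shared promoter, with 127 bases between their RefSeq starts. Their counts moved together from library to library. The ratio of COL4A1 to COL4A2 was 0.828 and 0.944 in GFI1-KO and 0.886 and 0.927 in WT, with overlapping groups and a mean log2 difference of -0.037 (exact two-sided permutation p = 1.0). It was the steadiest of the 9 pairs of collagen genes whose ratio was computed, and the 1 pair in which the groups overlapped. It was also the pair with the highest counts, and so with the least counting error. Those 9 pairs share chains, COL5A2 and COL6A2 among them, so they are not independent. Several hold a called gene, COL5A2 or COL18A1. How often ratios of other gene pairs fail to overlap was not computed. For single genes the groups did not overlap in 41.2% of all tested genes.

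COL4A5 and COL4A6, a pair of adjacent X-linked genes read in opposite directions, were lower in level. COL4A5, whose product joins the kidney filter membrane, had 113 and 74.3 CPM in GFI1-KO and 71.9 and 67.6 CPM in WT (log2 fold change 0.25, SE 0.27, edgeR adjusted p = 0.891). COL4A6 had 26.5 and 39.2 CPM in GFI1-KO and 39.7 and 42.0 CPM in WT (-0.14, SE 0.30, adjusted p = 0.966). In the deep libraries each gene's values lay within a few CPM of each other. COL4A3 and COL4A4 were not tested, on 0 and 0 against 2 and 0 counts for COL4A3 and 1 and 2 against 9 and 2 for COL4A4.

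**Figure D5:**
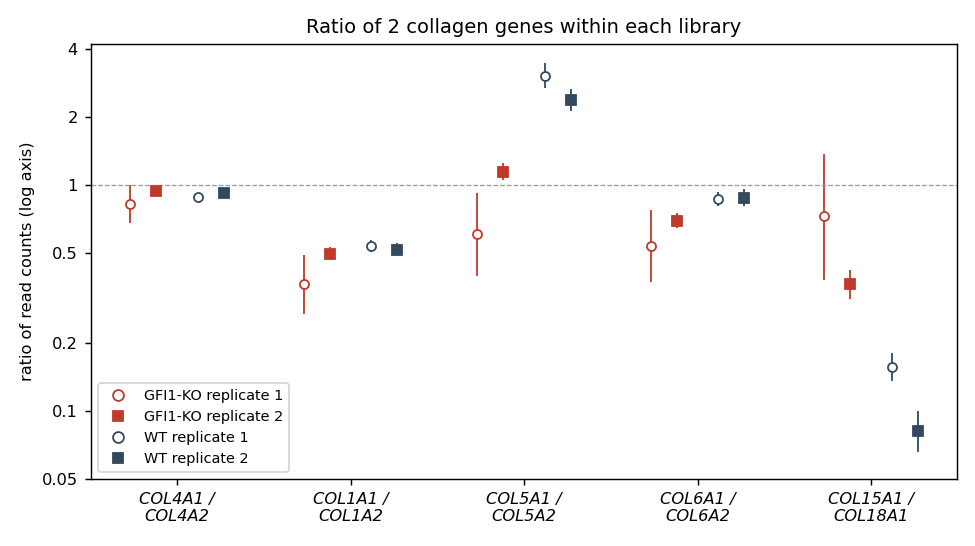
Ratio of the read counts of 2 collagen genes within each library (log axis) for 5 of the 9 pairs; red marks GFI1-KO and dark blue WT, with exact binomial 95% intervals. COL4A1 over COL4A2 stays between 0.828 and 0.944 in all 4 libraries, while COL5A1 over COL5A2 is 0.609 and 1.15 in GFI1-KO below 3.04 and 2.38 in WT.

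The type VI microfibril genes led the third family. COL6A2 had 590 and 681 CPM in GFI1-KO and 669 and 469 CPM in WT (log2 fold change 0.18, SE 0.23, edgeR adjusted p = 0.924). COL6A1 had 318 and 474 CPM in GFI1-KO and 581 and 413 CPM in WT (-0.26, SE 0.24, adjusted p = 0.866). COL6A3, the long chain of the same trimer, had 66.2 and 45.0 CPM in GFI1-KO and 104 and 60.8 CPM in WT (-0.76, SE 0.32, adjusted p = 0.433). All 3 genes overlapped between the groups. The sign of COL6A2 turned to -0.049 without WT replicate 2. COL6A1 ran from -0.63 without GFI1-KO replicate 2 to -0.0030 without WT replicate 1, and COL6A3 from -1.05 without WT replicate 2 to -0.28 without WT replicate 1.

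Within libraries the GFI1-KO ratios of type VI chains lay below the WT ratios. COL6A1 over COL6A2 was 0.539 and 0.697 in GFI1-KO and 0.869 and 0.879 in WT. The upper bound of the deep GFI1-KO library, 0.754, lay below the WT lower bounds of 0.806 for both libraries, and that of the shallow one was 0.775. COL6A3 over COL6A2 was 0.112 and 0.0661 in GFI1-KO and 0.156 and 0.130 in WT, and here the interval of the shallow library, 0.0521 to 0.216, covered both WT ratios. For both pairs the exact two-sided permutation p was 0.333, the smallest possible. Both ratios hold COL6A2 and so are not independent. Among the pairs computed, all but COL4A1 with COL4A2 failed to overlap, and single genes did so in 41.2% of all tested genes. COL6A5 had 0 counts in all 4 libraries and COL6A6 had 0 and 3 in GFI1-KO against 0 and 0 in WT.

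Fibril-associated genes were at low levels. COL9A2, a chain of the type IX collagen that coats cartilage fibres, had 53.0 and 53.4 CPM in GFI1-KO on 8 and 120 counts, against 21.0 and 29.8 CPM in WT on 47 and 71 counts. Both GFI1-KO values lay above both WT values, which did not pass the test (log2 fold change 1.07, SE 0.31, edgeR adjusted p = 0.142). Without GFI1-KO replicate 1 the adjusted p was 0.0197. This pattern was not seen in the other type IX genes. COL9A3 had 0 and 17 counts in GFI1-KO and 32 and 24 in WT. COL9A1 had 0 and 0 against 1 and 3 and was not tested. The WT values of both genes lay under the 19.9 CPM floor of the shallow library, which cannot place them. In the deep GFI1-KO library COL9A3 had 7.57 CPM, below 14.3 and 10.1 CPM in WT replicates 1 and 2. COL14A1 had 1 and 16 counts in GFI1-KO and 8 and 20 in WT, and COL16A1 had 0 and 9 against 12 and 11. COL12A1, COL19A1, COL21A1 and COL22A1 were not tested, with at most 7 counts in any library. COL20A1 had 0 counts throughout.

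Among the transmembrane collagens, COL13A1, found at cell junctions and adhesion sites, stood apart in 1 library. It had 0 and 40 counts in GFI1-KO replicates 1 and 2 and 7 and 8 in WT replicates 1 and 2. A count of 0 in the shallow library allows up to 19.9 CPM, more than the 17.8 CPM of the deep GFI1-KO library. COL13A1 failed the low-count filter in the reported fit. Without GFI1-KO replicate 1 it was tested and called on 1 GFI1-KO library (log2 fold change 2.44, SE 0.58, edgeR adjusted p = 0.00174). It was also called without the low-count filter (adjusted p = 0.0174). The 3 other fits that tested it did not call it, with an edgeR adjusted p of 0.22 for the filter at mean 5 CPM, 0.853 without WT replicate 1 and 0.778 without WT replicate 2. COL25A1 had 0 and 89 counts in GFI1-KO and 38 and 103 in WT, COL23A1 had 2 and 9 against 9 and 18, and COL17A1 had 0 throughout.

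COL26A1 had 92.7 and 73.4 CPM in GFI1-KO and 114 and 89.4 CPM in WT (log2 fold change -0.39, SE 0.27, edgeR adjusted p = 0.781), with overlapping groups. COL7A1, the anchoring fibril gene of the skin, had 1 and 16 counts in GFI1-KO and 14 and 6 in WT. The short-chain network genes COL8A1, COL8A2 and COL10A1 had at most 1 count in any library, and COL28A1 likewise. Across the 11 tested genes of the other family edgeR made 0 calls, as did DESeq2 and limma-voom. An unadjusted edgeR p under 0.05 was found for 2 of the 11, beside 9.35% of all tested genes.

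Per kilobase of annotated exon, COL6A2, COL4A1, COL1A2 and COL4A2 had the highest mean levels over the 4 libraries. COL6A2 averaged 118 CPM per kilobase in GFI1-KO and 106 in WT, and COL4A1 averaged 114 in GFI1-KO and 104 in WT. COL1A2 averaged 102 in GFI1-KO and 107 in WT, and COL4A2 averaged 97.0 in GFI1-KO and 87.7 in WT. COL6A1 came next, with 74.2 in GFI1-KO and 93.0 in WT, where it lay above COL4A2. COL3A1 averaged 75.0 in GFI1-KO and 83.3 in WT, and COL1A1 was lower, with 50.03 in GFI1-KO and 64.4 in WT. COL5A2 averaged 55.7 CPM per kilobase in GFI1-KO and 21.7 in WT, and COL18A1 averaged 26.9 in GFI1-KO and 68.9 in WT, so these 2 genes changed places. The exon lengths join all annotated transcripts and may exceed those in use.

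Genes that process, bind or break down collagen made 0 calls with edgeR, DESeq2 or limma-voom. The counts at an unadjusted p under 0.05 that follow stand beside 9.35% over all tested genes. Of 17 tested genes for chain hydroxylation and folding, 0 had an unadjusted p under 0.05, and the median log2 fold change was -0.069. Of 17 tested genes for secretion, propeptide removal and cross-linking, 2 did (median 0.11). TGM2, a cross-linking transglutaminase gene, had 391 and 159 CPM in GFI1-KO and 133 and 82.7 CPM in WT (1.14, SE 0.34, edgeR adjusted p = 0.167). TGM2 was called without WT replicate 1 (0.0132), without GFI1-KO replicate 2 (2.28e-07) and without the low-count filter (0.00326). CREB3L1, which encodes a membrane-bound factor known to activate type I collagen genes, had 26.5 and 33.8 CPM in GFI1-KO and 58.9 and 62.9 CPM in WT (-0.89, SE 0.28, adjusted p = 0.186). Neither TGM2 nor CREB3L1 overlapped between the groups, like 41.2% of all tested genes.

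Of 6 tested collagen receptors 0 had an unadjusted p under 0.05 (median 0.12). All 6 overlapped between the groups, with 4 log2 fold changes above 0 and 2 below. ITGA1, an integrin gene, was at 0.49 (SE 0.36, edgeR adjusted p = 0.807). DDR1, a collagen-activated kinase gene, had the lowest value (log2 fold change -0.44, SE 0.44, edgeR adjusted p = 0.883). Of 14 tested genes of breakdown and its inhibitors, 3 had an unadjusted p under 0.05 and the median was 0.23. The gelatinase gene MMP9 had 6 and 40 counts in GFI1-KO and 14 and 19 in WT (1.56, SE 0.48, adjusted p = 0.178). Of 9 tested matrix partners of fibres, 3 did (median 0.057), and FBN1, the fibrillin microfibril gene, had 152 and 201 CPM in GFI1-KO and 99.6 and 103 CPM in WT (0.87, SE 0.24, adjusted p = 0.102). Without GFI1-KO replicate 1, FBN1 was called (edgeR adjusted p = 0.0044).

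Markers of stromal cells, which also make fibrillar collagen, were read beside the collagens. The 10 fibroblast and mesenchymal markers all had counts in at least 1 library, but 6 of them were too low to test. Those 6, TWIST1, DCN, TCF21, MEOX1, TBX18 and CXCL12, had at most 6 counts in any library. The 10 summed to 735 and 788 CPM in GFI1-KO and 515 and 453 CPM in WT. Most of that sum was THY1, with 662 and 734 CPM in GFI1-KO and 477 and 428 CPM in WT (log2 fold change 0.64, SE 0.21, edgeR adjusted p = 0.215). PRRX1, a mesenchymal factor gene, had 3 and 55 counts in GFI1-KO and 15 and 24 in WT (1.49, SE 0.43, adjusted p = 0.131). The 10 pericyte and smooth muscle markers summed to 1358 and 1604 CPM in GFI1-KO and 1624 and 1649 CPM in WT. Most of this sum was RGS5, with 1166 and 1430 CPM in GFI1-KO and 1430 and 1470 CPM in WT. KCNJ8 and ABCC9 had at most 1 count in any library and were not tested. Single members differed in direction: CSPG4, a pericyte proteoglycan gene, had 53.0 and 23.1 CPM in GFI1-KO and 13.0 and 9.23 CPM in WT (1.34, SE 0.44, edgeR adjusted p = 0.218), while the muscle filament gene DES had 0 and 3 counts in GFI1-KO and 20 and 12 in WT (adjusted p = 0.264). Of these 2 lists 4 and 8 genes were tested and 0 called with edgeR, DESeq2 or limma-voom, with 2 in each at an unadjusted p under 0.05. PRRX1 and THY1 were called without GFI1-KO replicate 1 (edgeR adjusted p = 0.0163 and 0.0341), and PRRX1 without the low-count filter (0.0484). The mesenchymal sum was higher in both GFI1-KO libraries, as COL5A2 and the sum of the endothelial markers were, while COL18A1 was lower. The part of either sum in these values was not tested. The 10 blood markers summed to 0 and 13.8 CPM in GFI1-KO and 45.1 and 71.8 CPM in WT, with PTPRC, HBE1 and HBG1 at 0 in all 4 libraries. In all 5 tested blood markers both GFI1-KO libraries lay below both WT libraries, as in 22.7% of all tested genes. GFI1-KO replicate 1 had 0 counts of each, and all their WT values lay under its floor of 19.9 CPM. The shallow library thus cannot place these genes, and the direction rests on GFI1-KO replicate 2. Their median log2 fold change was -2.66, and 4 had an unadjusted p under 0.05, beside 9.35% of all tested genes. The erythroid factor gene KLF1 had 0 and 5 counts in GFI1-KO and 23 and 39 in WT (edgeR adjusted p = 0.079), and the myeloid gene CD33 had 0 and 3 in GFI1-KO and 19 and 28 in WT (adjusted p = 0.0873). Both were called without GFI1-KO replicate 1 (0.00919 for KLF1 and 0.0231 for CD33) and without the low-count filter (0.0123 and 0.0287). The 8 pluripotency markers summed to 848 and 874 CPM in GFI1-KO and 1074 and 1166 CPM in WT, with NANOG at 0. POU5F1 had 0 and 5 counts in GFI1-KO and 4 and 13 in WT and was not tested. Other members of the list therefore held nearly all of the sum. Of the 8 markers, 4 were tested and 0 called with edgeR, DESeq2 or limma-voom. In all 4 tested markers both GFI1-KO libraries lay below both WT libraries, as in 22.7% of all tested genes. An unadjusted edgeR p under 0.05 was found for 1 of the 4, beside 9.35% of all tested genes. The part of the blood and pluripotency markers in the collagen values was not tested either.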

How the data were processed

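Total RNA was sequenced from 2 GFI1-KO and 2 WT libraries (TruSeq RNA kit, per the labels' protocols). The authors deposited raw read counts per gene. The submitters' processing notes name hg38 and the tools DESeq 1.18.1, HTSeq 0.6.0, HISAT2 2.0.4 and SAMtools 1.3.1. Their roles, the annotation, read filters and strand setting are not stated in the sources used. Of 19912 gene identifiers, 19902 matched GENCODE 29.

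Counts were tested with edgeR 4.0.16 (R 4.3.3): TMM scaling, filterByExpr defaults (minimum count 10, total 15), glmQLFit with the earlier dispersion form, glmQLFTest on genotype, and adjusted p under 0.05 called. Log2 fold changes use a prior count of 0.125. The SE was taken from the unshrunken log2 fold change and the square root of F. Alternatives were DESeq2 1.42.0, limma-voom (limma 3.58.1), other dispersions, scalings and filters, a block on replicate number, and fits without each library in turn. Scripts were tested on simulated data.

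The collagen genes and lists were chosen with earlier results of these data known, and no list was tested as a set. Collagen genes with a call or a mean of at least 50 CPM get full statistics, and up to 2 genes of each other list are drawn on by smallest adjusted p. Further members of the lists are named for their part in a sum, their direction or their low counts. No label says that replicates came from separate cultures. The p-values therefore reflect only how these samples vary, and that variation may be technical. The replicate numbers were not taken to pair libraries, since nothing in the labels ties them. Intervals and floors cover counting error only.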

Additional observations from a re-analysis of the deposited data

How the results depend on the processing

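COL5A2 (log2 fold change 1.24 to 1.503) and COL18A1 (-1.76 to -1.03) kept their direction under all 12 alternatives, and the report names where each call was lost. The count of called genes, 109 as reported, was 33 with DESeq2, 58 with the newer dispersion, 58 with upper-quartile scaling, 305 without the low-count filter, 50 with a filter at mean 5 CPM, and 62 to 373 when 1 library was left out. Collagen genes called higher numbered 2 without the low-count filter (COL5A2 and COL13A1) and 0 to 3 with 1 library left out: 0 without WT replicate 1, and COL5A2, COL9A2 and COL13A1 when GFI1-KO replicate 1 was left out. Collagen genes called lower numbered 0 with the newer dispersion and with the filter at mean 5 CPM, and 0 to 1 with 1 library left out (0 without WT replicate 1). With 1 library left in a group, its spread is taken to be that of the other group.

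With the replicate block 327 genes were called, and 2 collagen genes were higher, COL5A2 and COL15A1 (log2 fold change 0.92, edgeR adjusted p = 0.0229). Of the other genes named, the block also called FBN1 (0.0268), TGM2 (3.59e-05), CSPG4 (0.0299), KLF1 (0.00655) and CD33 (0.0172). The deviations of same-numbered libraries correlated at 0.116 over 11380 genes, and the labels give no shared batch, so the pairing was not used.

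Signs turned for uncalled genes. Over the fits that left out 1 library, log2 fold changes ran from -0.37 to 0.72 for COL11A1, -0.18 to 0.076 for COL1A2, -0.45 to 0.24 for COL27A1, -0.63 to 0.64 for COL3A1, -0.19 to 0.39 for COL4A1, -0.057 to 0.33 for COL4A2, -0.74 to 0.10 for COL5A1, -0.049 to 0.46 for COL6A2 and -0.78 to 0.21 for DDR1. Among genes that kept their sign, COL1A1 ran from -0.57 to -0.16, COL26A1 from -0.52 to -0.12, COL4A5 from 0.092 to 0.70 and COL4A6 from -0.61 to -0.061. COL3A1 was also 0.022 with limma-voom and 0.071 with the replicate block. The cause of these turns was not tested. The median of all tested genes moved from -0.024 as reported to -0.10 without GFI1-KO replicate 2, and stayed between -0.048 and -0.00445 under every other alternative. The 146584 counts of GFI1-KO replicate 1 limit the low genes most.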
